A study of Homo sapiens with 5 samples.

Results

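Cytoplasmic ribosomal protein genes encode the protein parts of the ribosome that makes all nuclear-encoded proteins of a cell. They were read from 8 single-cell RNA sequencing libraries of WA09, an established human embryonic stem cell line, along its differentiation to gonadotropin-releasing hormone (GnRH) neurons. The family was taken by symbol: genes whose name starts with RPL or RPS and a digit, plus RPSA and RPLP0 to RPLP2, without the RPS6K kinases, antisense genes and pseudogenes. This gave 90 of the 37407 genes listed in either annotation used. Of these, 78 encode the usual subunits and are called core genes here, 31 in the small subunit, 44 in the large subunit and 3 in the stalk of the large subunit. Another 7 are paralogs of a core gene, 3 are read-through genes that join a family member to its neighbour, and 2 are Y-linked and were only counted. The choice used names, not measured values.

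All cells carried the wild type genotype of the line, and every library is 1 culture condition with no replicate, so no difference between conditions was tested against the spread between cultures. D0 held undifferentiated cells. D5_dSMADi and D10_dSMADi held cells at day 5 and day 10 of dual SMAD inhibition with dorsomorphin and SB431542, which block BMP and TGF-β signalling and turn pluripotent cells to neural progenitors. D5_XAV939 and D10_XAV939 received, in addition, the Wnt pathway inhibitor XAV939. D22, D24 and D26 came from the protocol without XAV939, after FGF8 and during Notch inhibition with DAPT, and the protocol froze cells in between, before Notch inhibition. The 5 earlier conditions were tagged with oligos, pooled and run together, and the 3 later ones were run separately, with another dissociation enzyme by the study's methods and with another gene annotation, so day and run cannot be told apart between these sets and ratios were taken within a set only.

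In growing cells the ribosomal protein mRNAs are among the most abundant messages, and the proteins are made in near equal numbers, since each ribosome takes 1 copy of nearly all of them. Their mRNAs share a start rich in C and T, the terminal oligopyrimidine (TOP) tract, through which the mTOR pathway and LARP1 set their translation together. Pluripotent cells and dividing progenitors make many ribosomes, and neurons that have left the cell cycle make fewer. A few members have paralogs that can take their place in the ribosome or that have a use of their own, such as RPS27L, a target of p53.

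The start letters set the core genes apart from most of their paralogs, and are shown here for 3 paralogs with their core partners and for 3 core genes whose levels departed, with and without the tract. RPS2 and RPL39L, also described below, are named only. In RefSeq (GRCh38.p14) 63 core genes and 5 paralogs had an annotated start. A C followed by at least 4 bases that are each C or T, on the gene's own strand and beginning within 5 bases of a start, was found in 54 of the 63 core genes (85.7%), in 1 of the 5 paralogs and in 6886 of all 27305 genes with a start in the table (25.2%). Each line below runs 5′ to 3′ on the gene's strand from 15 bases before the annotated start to the first 15 transcribed bases, with the tract in capitals.
RPL22: tagttcgctcaCCTCCCTTTCTaactccgc
RPL22L1: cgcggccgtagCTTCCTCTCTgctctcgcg
RPS27: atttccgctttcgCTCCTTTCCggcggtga
RPS27L: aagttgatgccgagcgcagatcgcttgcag
RPL26: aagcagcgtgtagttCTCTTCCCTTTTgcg
RPL26L1: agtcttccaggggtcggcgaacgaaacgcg
RPS6: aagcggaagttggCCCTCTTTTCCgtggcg
RPLP0: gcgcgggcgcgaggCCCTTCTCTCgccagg
RPS26: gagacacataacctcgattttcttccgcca
They lie at chr1:6199581-6199610 (RPL22), chr3:170870181-170870210 (RPL22L1), chr1:153990747-153990776 (RPS27), chr15:63157463-63157492 (RPS27L), chr17:8383179-8383208 (RPL26), chr5:172958714-172958743 (RPL26L1), chr9:19380222-19380251 (RPS6), chr12:120201097-120201126 (RPLP0) and chr12:56041903-56041932 (RPS26). RPL22, RPL22L1, RPS27L, RPL26, RPS6 and RPLP0 are read from the minus strand. RPL26L1 has a second listed start, which also lacked the tract. RPL22L1 is the paralog with a tract, while RPS27L, RPL26L1, RPL7L1 and RPL10L had none. RPS26 counted as without a tract, although a C followed by 4 such bases begins just past the 5 bases allowed. A match is a description of letters and was not tied to any level here.

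The core genes took between 1 in 3.09 and 1 in 6.86 of all UMIs (unique molecular identifiers, the counted mRNA molecules). Their share was 22.7% at D0, 32.4% in D5_dSMADi, 30.8% in D5_XAV939, 24.05% in D10_dSMADi, 22.3% in D10_XAV939, 25.1% at D22, 19.9% at D24 and 14.6% at D26. Among the tagged libraries it was highest in both libraries of day 5, and among D22, D24 and D26 it was lower at each later day. Each share rests on 12972664 to 32782998 family UMIs, so that its exact 95% binomial interval (Clopper-Pearson) is narrow, from 22.722% to 22.741% at D0 and from 14.566% to 14.580% at D26. These intervals cover counting error only. Single cells spread far more widely. The middle 80% of cells lay between 20.2% and 25.4% at D0, between 28.2% and 37.9% in D5_dSMADi and between 11.5% and 17.7% at D26. These ranges did not overlap between D0 and either library of day 5, nor between D22 and D26.

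**Figure D1:**
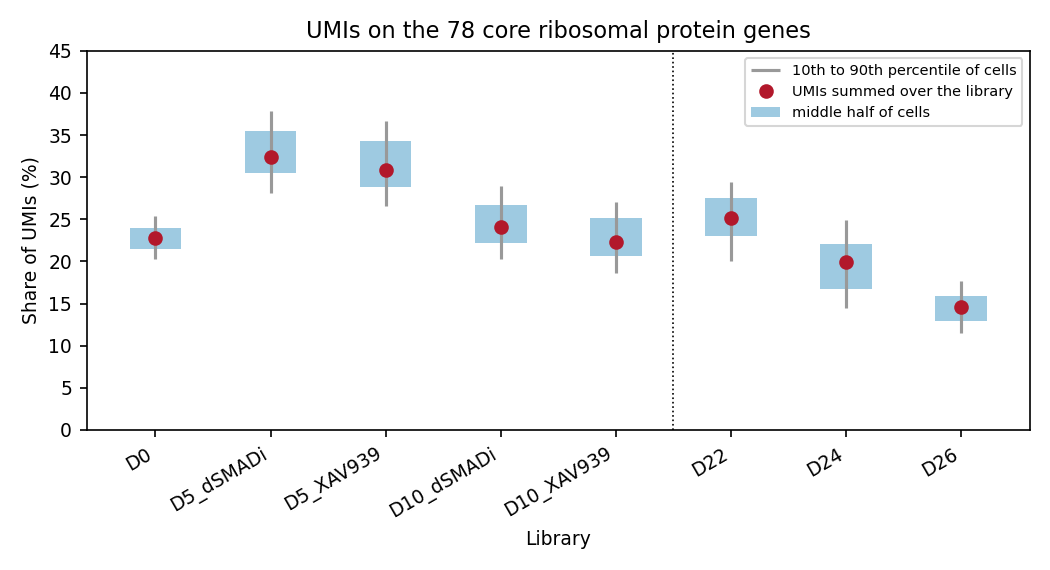
The share of UMIs on the 78 core ribosomal protein genes (y axis, in percent) in each of the 8 libraries (x axis); red points are UMIs summed over all cells kept, boxes hold the middle 50% of cells and grey lines run from the 10th to the 90th percentile of cells. The dotted line separates the pooled, tagged libraries from those run separately; the red points sit highest, at 32.4% and 30.8%, at day 5 and lowest, at 14.6%, at D26.

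The libraries held 1292 to 12171 barcodes, of which 1009 to 11056 cells were kept, with 58073098 to 130440502 UMIs and a median of 7180 to 69455 UMIs a cell. In the tagged libraries every barcode was led by the oligo its label names, and no barcode occurred in more than 1 of these libraries. Splitting a pooled run by oligo would give both, so they check the labels of the libraries and not the assignment of single cells. D22, D24 and D26 shared 27 to 37 barcodes with each other. Pluripotency markers (POU5F1, NANOG, DPPA4, TDGF1 and L1TD1) summed to 3964 CPM (UMIs per 1000000 UMIs of the library) at D0 and to at most 332.9 elsewhere. The labels call the tagged conditions neural progenitors, D0 included, and D22, D24 and D26 neurons, but markers of dividing progenitors (TOP2A, MKI67, NUSAP1, UBE2C, HMGB2 and CCNB1) summed to 1818 CPM at D22, against 112.8 at D24 and 36.2 at D26, so D22 held dividing cells as well. Depth and the mitochondrial share differed between libraries too, the latter being lowest at day 5 (1.89% without and 2.22% with XAV939) and highest at D26 (4.45%). Their part in the family's share was not tested. With mitochondrial UMIs taken out of the total the share was 33.0% in D5_dSMADi and 15.3% at D26, and in cells of a common depth it was 23.1% at D0 and 31.2% in D5_dSMADi (30000 to 60000 UMIs a cell) and 25.1%, 20.3% and 14.6% at D22, D24 and D26 (6000 to 15000 UMIs).

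Small and large subunit genes kept a near constant proportion. The small subunit genes held 41.8% of the family's UMIs at D0, 41.9% in D5_dSMADi, 42.0% in D5_XAV939, 41.9% in D10_dSMADi, 41.9% in D10_XAV939, 42.3% at D22, 40.6% at D24 and 40.0% at D26. D24 and D26 stood slightly below the other libraries. The 3 stalk genes, whose proteins recruit the translation factors that hydrolyse GTP, held 1.18% of all UMIs at D0, 1.46% and 1.44% at day 5 without and with XAV939, 1.11% and 1.05% at day 10, 1.15% at D22, 0.653% at D24 and 0.506% at D26.

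From D0 to D5_dSMADi the family's share was 1.42-fold higher (log2 ratio 0.51, counting interval 0.509 to 0.511), while the median of the 8985 genes with at least 10 CPM in either library was lower, at -0.12. Of the 78 core genes 75 were higher and 3 lower, also when libraries were scaled by the median gene ratio. A ratio of at least 1.5-fold upward was reached by 25 core genes, and by 18.1% of all genes measured; 1 core gene was lower by that fold, against 28.8% of all genes. The core genes moved close to each other, with an SD of 0.29 in the log2 ratio against 1.22 over all genes.

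Departures from the family were counted as members with at least 10 CPM in either library whose log2 ratio lay at least 1.5-fold from the median of the core genes, a rule of size since no replicate allows a test. Of the 90 members 83 had enough UMIs: the 78 core genes and the paralogs RPL22L1, RPL39L, RPS27L, RPL26L1 and RPL7L1. RPL3L, RPL10L and the 3 read-through genes stayed below the minimum. From D0 to D5_dSMADi 6 of the 83 departed, all downward, where 47.4% of all genes lay as far from their own median. They were RPL22L1, RPL39L, RPS26, RPL36AL, RPL23A and RPL7L1.

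RPL22L1, the paralog of RPL22 and a regulator of splicing besides its place in the ribosome, stood farthest apart. Its level was 634 CPM at D0, 71.2 in D5_dSMADi, 78.4 in D5_XAV939, 76.2 in D10_dSMADi, 109 in D10_XAV939, 58.9 at D22, 40.6 at D24 and 34.5 at D26. D0 was far above every other library, with a log2 ratio of -3.16 (counting interval -3.19 to -3.12) in D5_dSMADi over D0, or -3.65 from the family median. RPL22 itself had the narrowest range of all core genes over the 8 libraries, which span both sets. Its log2 share of the family's UMIs ranged over only 0.097, where the median core gene ranged over 0.56. Within a set other genes were narrower. From D0 to D10 RPL30 ranged over 0.010 and RPL22 over 0.056, and from D22 to D26 RPS25 over 0.053 and RPL22 over 0.097. RPL22 was measured at 1757 CPM at D0, 2446 and 2311 at day 5 without and with XAV939, 1867 and 1669 at day 10, and 1841, 1562 and 1096 at D22, D24 and D26. The pair thus parted between D0 and day 5, RPL22 higher with the family and RPL22L1 lower.

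RPL39L, a paralog of RPL39 best known from the testis, was measured at 131 CPM at D0, 58.9 and 55.5 at day 5 without and with XAV939, 74.5 and 53.3 at day 10, and 29.9, 28.5 and 25.9 at D22, D24 and D26. It lay 1.65 below the family median in D5_dSMADi over D0 on the log2 scale. RPL39 was higher by then, at 2768 CPM in D0 and 4636 in D5_dSMADi, so this pair also parted.

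RPS26, a small subunit protein near the mRNA exit, was the core gene farthest from the family at this step. It had 1544 CPM at D0, 794 and 761 at day 5, 908 and 897 at day 10 (each without and with XAV939), and 1093, 1043 and 804 at D22, D24 and D26. D0 was above the other 7 libraries, and D5_dSMADi over D0 gave a log2 ratio of -0.96 (counting interval -0.97 to -0.95), 1.46 below the family median. RPL36AL, a core gene that differs little from RPL36A, had 647 CPM at D0 and 555 in D5_dSMADi, and RPL23A, which binds the signal recognition particle at the exit tunnel, had 1942 and 1753. Both were slightly lower while 75 core genes were higher, and lay 0.717 and 0.645 below the family median on the log2 scale. RPL7L1, which acts in ribosome assembly, had 156 CPM at D0 and 142 in D5_dSMADi.

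**Figure D2:**
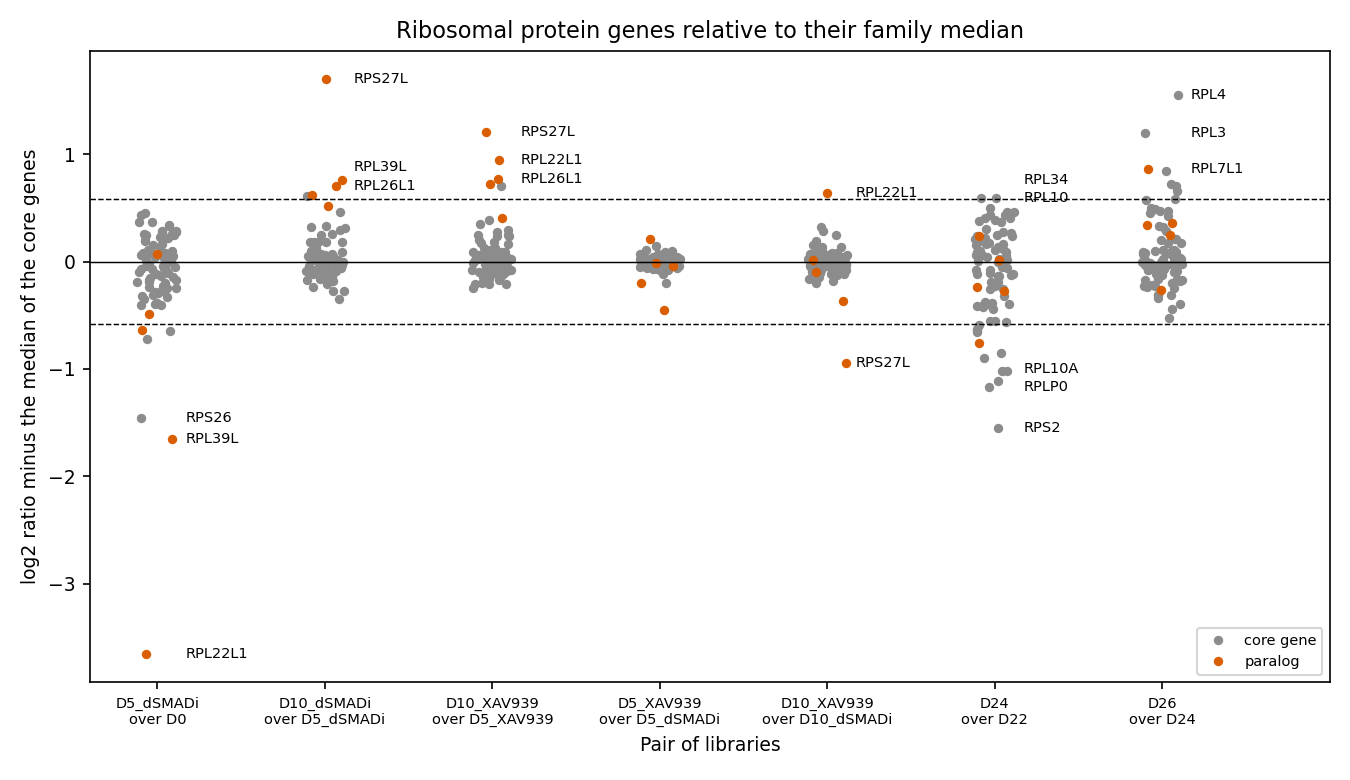
The log2 ratio of each member minus the median log2 ratio of the core genes (y axis) in 7 pairs of libraries (x axis); grey points are core genes, orange points paralogs, dashed lines mark 1.5-fold, and up to 3 departing members a direction are named. RPL22L1 lies at -3.65 in D5_dSMADi over D0, RPS27L at 1.70 in D10_dSMADi over D5_dSMADi, and D24 over D22 has the widest spread of core genes.

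The genes that build ribosomes were lower at day 5 while the ribosomal protein mRNAs were higher. Of 30 ribosome biogenesis genes (nucleolar and polymerase I factors) 29 were lower in D5_dSMADi than in D0, 20 of them by at least 1.5-fold (28.8% of all genes), with a median log2 ratio of -0.71 against -0.12 over all genes. NCL, the major nucleolar protein nucleolin, had 2108 CPM at D0 and 910 in D5_dSMADi, and BOP1, needed to process the large subunit RNA, 53.5 and 9.50. RRN3, a polymerase I initiation factor, was the 1 gene of the list that was higher (27.7 and 37.0 CPM), and RIOK1 had 49.6 and 43.0. The summed share of the list was 0.916% of UMIs at D0, 0.523% in D5_dSMADi, 0.521% in D5_XAV939, 0.555% in D10_dSMADi, 0.583% in D10_XAV939, 0.375% at D22, 0.207% at D24 and 0.2502% at D26. D0 was the highest library for this list and day 5 the highest for the ribosomal proteins.

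Mitochondrial ribosomal protein genes, which share names but not a ribosome with the family, were also lower at day 5. Of the 79 symbols listed, 78 were measured, 67 were lower and 31 were lower by at least 1.5-fold in D5_dSMADi over D0 (28.8% of all genes), with a median of -0.44 against -0.12 over all genes. MRPL34 had 150 CPM at D0 and 40.4 in D5_dSMADi, MRPL12 had 165 and 56.5, and MRPS31 had 72.2 and 118. MRPS30-DT, a noncoding transcript that the symbol rule takes in, had 4.40 and 13.0.

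Translation factors were split. In D5_dSMADi over D0, 13 of 25 measured were higher and 12 lower, with a median of 0.03. EEF1G, a subunit of the elongation factor complex whose mRNA also carries a TOP tract, had 1083 CPM at D0 and 2071 in D5_dSMADi, and EIF3F had 253 and 452. EIF4EBP1, the mTOR-controlled brake on cap binding, had 251 and 37.3, a log2 ratio of -2.75, and LARP1, which binds TOP mRNAs, had 146 and 75.8. Of MYC and its partners 7 of 9 were measured, 5 higher and 2 lower, with a median of 0.33 against -0.12 over all genes. MYC had 34.8 CPM at D0 and 10.2 in D5_dSMADi and MYCN 55.6 and 19.0, while MXI1 (9.34 and 17.5) and MXD3 (7.10 and 13.8), which compete with MYC for MAX, were higher.

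From day 5 to day 10 the family's share was lower without and with XAV939. It was 0.743-fold in D10_dSMADi over D5_dSMADi (log2 ratio -0.43) and 0.725-fold in D10_XAV939 over D5_XAV939 (-0.46), where the medians of all genes were 0.18 and 0.16. Of the 78 core genes 76 and 77 were lower, and 78 and 77 when scaled by the median gene ratio, which shifts log2 ratios by -0.21 and -0.17 here, by -0.31 in D26 over D24 and by -0.24 in D26 over D22. By at least 1.5-fold 8 and 12 core genes were lower, against 3.28% and 3.55% of all genes. In each step 5 of 83 members departed, all upward, against 14.5% and 13.3% of all genes around their median.

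RPS27L, the p53-regulated paralog of RPS27, was the member farthest above the family in both steps. Its level was 249 CPM at D0, 369 in D5_dSMADi, 257 in D5_XAV939, 895 in D10_dSMADi, 429 in D10_XAV939, 442 at D22, 212 at D24 and 126 at D26. D10_dSMADi was far above the other 7 libraries, and D26 was lowest. The log2 ratio over day 5 was 1.28 (counting interval 1.26 to 1.30) without XAV939 and 0.74 (0.72 to 0.77) with it, 1.70 and 1.21 above the family medians. RPS27 lay within 0.09 of the family median in both steps, with 4984 and 3531 CPM at day 5 and day 10 without XAV939 and 4817 and 3279 with it.

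The other departing members stayed level or were higher while the family was lower. RPL26L1 had 103 CPM in D5_dSMADi and 126 in D10_dSMADi, and 95.1 and 118 with XAV939, while its partner RPL26 had 5706 and 3917, and 5194 and 3339. RPL22L1 lay 0.94 above the family median with XAV939 and 0.52 above it without, where its own log2 ratio of 0.10 became -0.11 under scaling by the median gene ratio. RPL39L lay 0.76 above without XAV939 and 0.41 with it. RPS26 and RPL7L1 departed in both steps, at 0.61 and 0.62 without XAV939 and 0.70 and 0.73 with it. Without XAV939 the sign of their own ratio depended on the scaling, since log2 ratios of 0.19 and 0.20 became -0.01 and -0.01 when libraries were scaled by the median gene ratio.

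**Figure D3:**
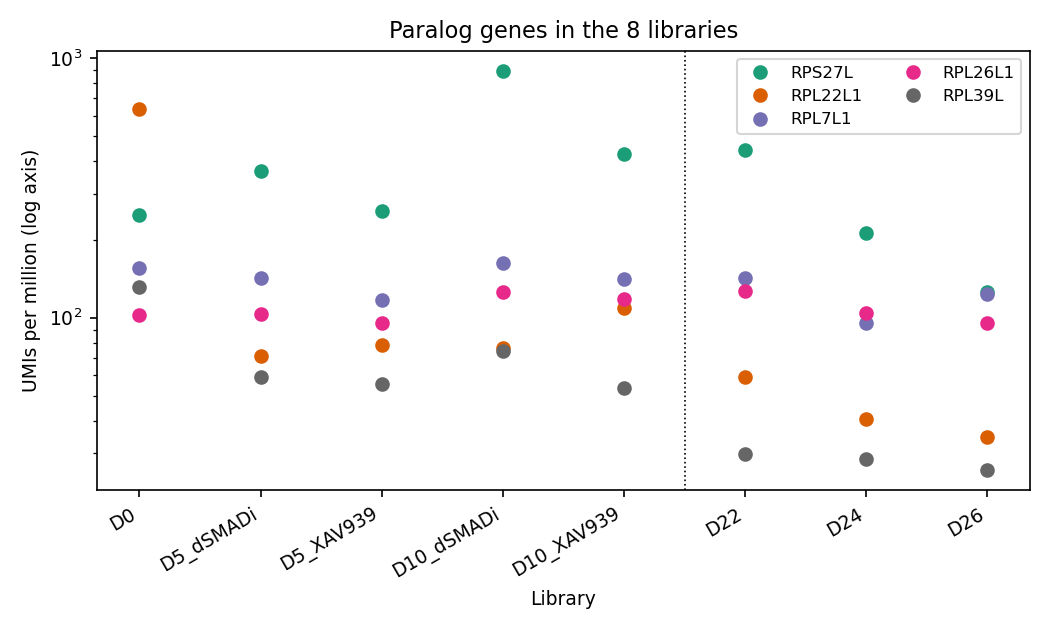
CPM (y axis, log scale) of the 5 paralogs with at least 10 CPM in each of the 8 libraries (x axis), 1 point a library; the dotted line separates the tagged libraries from those run separately. RPL22L1 is at 634 at D0 and at most 109 elsewhere, and RPS27L peaks at 895 in D10_dSMADi.

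XAV939 made a small difference to the family. Its share was 0.952-fold in D5_XAV939 over D5_dSMADi (log2 ratio -0.07) and 0.929-fold in D10_XAV939 over D10_dSMADi (-0.11), and the medians of all genes were 0.05 and 0.02. At day 5, 72 of 78 core genes were lower with XAV939, and 70 were at day 10. The core genes kept within an SD of 0.05 and 0.10 of each other, and none differed by 1.5-fold at either day, where 3.08% and 1.76% of all genes did so upward and downward at day 5 and 3.67% and 3.68% at day 10. With 1 culture for each condition, whether differences of this size exceed those between cultures was not tested.

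Of the 5 paralogs measured RPS27L and RPL22L1 departed from the family with XAV939, at day 10. At day 5 no member of 83 departed from the family by 1.5-fold (4.39% of all genes did from their median), and RPS27L came nearest, with 369 CPM without and 257 with XAV939. At day 10, 2 departed, against 7.31% of all genes. RPS27L had 895 CPM without and 429 with XAV939, a log2 ratio of -1.06 (counting interval -1.08 to -1.04), and was lower with XAV939 at both days. RPL22L1 had 76.2 without and 109 with XAV939, a log2 ratio of 0.52 (0.47 to 0.57), and was also higher at day 5 (71.2 and 78.4 CPM). Among core genes RPS6, the small subunit phosphoprotein downstream of mTOR, lay farthest above the family at both days, by 0.14 and 0.32. Of 7 measured among MYC and its partners 4 were higher and 3 lower with XAV939 at day 5, with a median log2 ratio of 0.18 (0.05 over all genes). At day 10 the 7 were higher, 3 of them by at least 1.5-fold (3.67% of all genes), with a median of 0.49 (0.02 over all genes).

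From D22 to D24 and D26 the family's share was lower at each step. It was 0.793-fold in D24 over D22 (log2 ratio -0.33) and 0.731-fold in D26 over D24 (-0.45), where the medians of all genes were -0.11 and 0.34. Of the core genes 65 and 68 of 78 were lower, or 61 and 75 when scaled by the median gene ratio. By at least 1.5-fold 23 were lower in D24 over D22 (24.8% of all genes), and in D26 over D24 20 were lower (4.55% of all genes) and 2 higher (29.3%). Passing over D24, D26 over D22 gave 0.580-fold (-0.79) with 77 of 78 core genes lower, where the median of all genes was 0.24.

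The core genes were more spread between D22 and D24 than in the earlier steps, although 65 of 78 were lower. Their log2 ratios had an SD of 0.45 (1.21 over all genes), against 0.29 in D5_dSMADi over D0 and 0.16 in both steps from day 5 to day 10, and in D26 over D24 it was 0.35 (0.60 over all genes). In D24 over D22 14 of 83 members departed, 12 downward and 2 upward (41.7% of all genes lay as far from their median). In D26 over D24, 7 departed, all upward (20.6% of all genes), and in D26 over D22, 10 did (45.8%). The comparisons of D24 over D22 and D26 over D24 share D24.

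RPS2, a small subunit protein at the mRNA entry, was farthest below the family. It had 5795 CPM at D22, 1605 at D24 and 1713 at D26, while in the tagged libraries it was between 5046 and 7472. D24 and D26 stood alike and far below the rest, and the log2 ratio of D24 over D22 was -1.85 (counting interval -1.86 to -1.84), 1.55 below the family median. RPL10A, at the mobile stalk on the other side of the large subunit, had 2016, 756 and 767 CPM at D22, D24 and D26, and RPS6 had 3268, 1468 and 1218. In CPM these 3 genes had low levels at D24 and at D26 alike, but their share of the family's UMIs was lowest at D24.

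Another set was lowest at D24, with a larger return at D26. RPLP0, the base of the stalk, had 2676 CPM at D22, 963 at D24 and 1240 at D26. RPL3, at the peptidyl transferase centre, had 3440, 1375 and 2264, and RPL4, which lines the exit tunnel, 541, 299 and 628. RPS9 had 2378, 950 and 1120, and RPSA, also known as the laminin receptor, 2318, 1010 and 1178. RPL35, another large subunit gene, held 0.660%, 0.433% and 0.669% of the family's UMIs on the same days. Measured as such a share, these 6 genes were lower at D24 than at both D22 and D26, and so were RPS2, RPL10A and RPS6. RPL3 held 1.37%, 0.690% and 1.55% of the family's UMIs, RPL4 0.215%, 0.150% and 0.431%, and RPL10A 0.802%, 0.379% and 0.526%. The 6 genes departed upward in D26 over D24, while RPS2, RPL10A and RPS6 did not. There the 6 genes lay above the family median by 1.55 (RPL4), 1.20 (RPL3), 0.85 (RPLP0), 0.72 (RPS9), 0.70 (RPSA) and 0.66 (RPL35). The sign of the ratio of RPS9, RPSA and RPL35 itself depended on the scaling (0.24, 0.22 and 0.18, or -0.07, -0.09 and -0.13 when scaled by the median gene ratio).

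RPL10 and RPL34 went the other way. RPL10, a late-joining large subunit protein encoded on the X chromosome, had 5504 CPM at D22, 6710 at D24 and 4253 at D26, and RPL34 had 4108, 5015 and 3411. Both were higher at D24, by log2 ratios of 0.29, while 65 of the 78 core genes were lower. They lay 0.59 above the family median, just past the limit for a departure, and in the share of the family they stayed high at D26, RPL10 with 2.92% against 2.19% at D22.

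**Figure D4:**
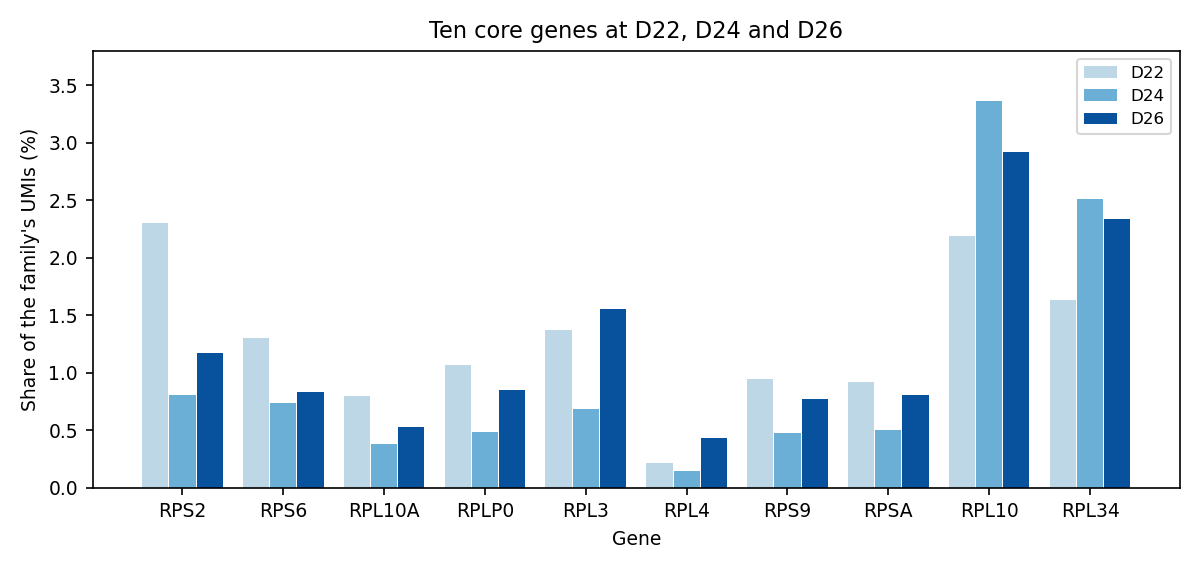
The share of the family's UMIs (y axis, in percent) held by each of 10 core genes (x axis) at D22, D24 and D26 (light to dark bars); single libraries, so no error bars. RPS2 goes from 2.31% at D22 to 0.805% and 1.18%, RPL3 dips to 0.690% at D24 and is at 1.55% at D26, and RPL10 and RPL34 are highest at D24.

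RPLP1 and RPLP2, the acidic stalk proteins, did not share the pattern of RPLP0. RPLP1 had 6361, 3522 and 2516 CPM at D22, D24 and D26, so it was lower at each step, and RPLP2 had 2445, 2049 and 1304. In D24 over D22 they lay 0.55 below and 0.05 above the family median, where RPLP0 lay 1.17 below.

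Of the companion lists 3 had medians below that of all genes (-0.11) in D24 over D22, and MYC and its partners did not. Ribosome biogenesis genes had a median log2 ratio of -0.77 in D24 over D22, with 23 of 26 measured lower and 14 lower by at least 1.5-fold (24.8% of all genes), and of 0.53 in D26 over D24, where the median of all genes was 0.34, with 21 of 22 higher and 9 higher by at least 1.5-fold (29.3% of all genes). RRS1 had 11.7 CPM at D22 and 2.22 at D24 and BYSL 10.5 and 2.28, while NOP10 had 197 and 259 and RIOK1 16.3 and 17.1. Of 25 translation factors 19 were lower in D24 over D22, 11 of them by at least 1.5-fold. EEF1D had 669 CPM at D22 and 159 at D24 and EIF3D 140 and 42.0, EIF4EBP1 had 16.7 and 23.6, and EEF1A2, the elongation factor that replaces EEF1A1 in mature neurons and muscle, had 11.5 and 61.9. Mitochondrial ribosomal protein genes had a median of -0.38, with 56 of 75 measured lower. By at least 1.5-fold 19 of the 75 were lower, near the share over all genes (24.8%). MRPS27 (28.6 and 9.78) and MRPL11 (115 and 46.3) were lowest and MRPS6 (140 and 386) and MRPL41 (155 and 252) highest. Of 8 measured among MYC and its partners 4 were higher and 4 lower, with a median of -0.08. MXD3 (21.4 and 1.72) and MYCL (26.1 and 2.52) were lowest, and MXD1 (12.8 and 29.5) and MNT (15.5 and 28.3) highest.

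To compare cell types, cells of D22, D24 and D26 were clustered without any family member and named from marker genes: PNP-like (dividing progenitors), NNP-like (neurogenic progenitors, NEUROG1 and NEUROD4), IRX-like (IRX genes and CRABP1), GnRH-GABA-like (GNRH1, DLX5 and GAD2) and Glut-like (TBR1, LHX9 and SLC17A6). Within D22 the family's share was 23.6% in 1839 PNP-like cells, 25.6% in 6947 NNP-like, 28.1% in 456 IRX-like, 25.9% in 173 GnRH-GABA-like and 15.9% in 108 Glut-like cells. The NNP-like class joined clusters of 26.75% (5174 cells) and 22.13% (1773 cells), on either side of the PNP-like value. The Glut-like cells stood below the other 4 classes. Glut-like over PNP-like cells gave a log2 ratio of -0.57 (counting interval -0.58 to -0.57), with 77 of 78 core genes lower, 38 of them by at least 1.5-fold (20.5% of all genes). The class at D22 depends on the clustering: with coarser or finer clusters 744 and 746 cells were Glut-like and the ratio was -0.42 in both, and with likely doublets left out 782 cells gave -0.40. Shares of cell classes in 1 library rest on 1 culture.

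**Figure D5:**
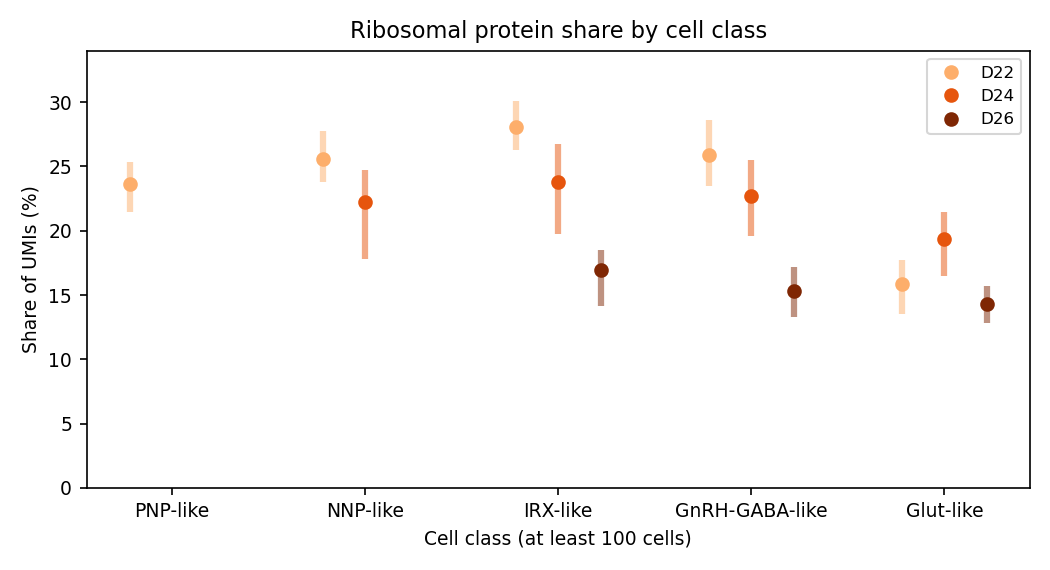
The share of UMIs on the core ribosomal protein genes (y axis, in percent) in each cell class with at least 100 cells (x axis) at D22, D24 and D26; points are UMIs summed over the cells of a class and bars hold the middle 50% of its cells. IRX-like cells go from 28.1% to 23.8% and 16.9%, GnRH-GABA-like cells are lower at D26 than at D24 (their D22 value depends on the clustering), and Glut-like cells are the lowest named class in all 3 libraries.

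The share was lower at later days in IRX-like cells, while other classes varied. IRX-like cells had 28.1% at D22, 23.8% at D24 and 16.9% at D26, in 456, 478 and 259 cells. With finer clusters most D22 cells of the class (450 of 459) fell into 1 cluster and most D24 and D26 cells (433 of 479 and 244 of 257) into another, so D22 is compared with the later days across different clusters. GnRH-GABA-like cells had 25.9%, 22.7% and 15.3%, but their order at D22 and D24 depends on the clustering: only 42 cells of D22 had this name with coarser or finer clusters, with 21.4% against 22.7% and 22.6% at D24, and 43 without likely doublets, with 22.1% against 23.0%. At D26 the class was lower than at D24 in each clustering, although finer clusters put 535 of its 549 D24 cells and 1693 of its 1767 D26 cells into separate clusters. PNP-like cells had 23.6% at D22 and 24.4% in the 52 such cells of D24. In D26 over D24, 35 core genes were lower by at least 1.5-fold in IRX-like cells (4.39% of all genes) and 42 in GnRH-GABA-like cells (3.32%). Glut-like cells had 15.9%, 19.4% and 14.3%, so D24 was above both other days, but the D24 and D26 cells of this class fell mostly into separate clusters (7803 of the 7910 cells of 1 cluster were from D24 and 8837 of the 8950 of the other from D26), and a cluster made of 1 library may be that library. Within a library GnRH-GABA-like cells were above Glut-like cells, by a log2 ratio of 0.23 at D24 and 0.10 at D26. There 77 and 71 of 78 core genes were higher, and the medians of all genes were -0.12 and -0.08.

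The single genes that set D24 apart also did so within the named classes, with the splits by day given above, which leave only IRX-like cells in D26 over D24 mostly in 1 cluster. In IRX-like cells D24 over D22, RPS2 lay 1.37 below the family median, RPL3 1.11 and RPLP0 0.96. In D26 over D24, RPL4 lay 1.55 above the family median in Glut-like, 1.56 in GnRH-GABA-like and 1.55 in IRX-like cells, and RPL3 1.20, 1.07 and 1.22. Day 24 and its library cannot be told apart. Within D22 alone, in Glut-like over PNP-like cells, 6 members departed downward and 1 upward, and the share of all genes as far from their median was not counted. Of the genes above, RPS2 lay 0.77, RPLP0 0.75, RPS6 0.70 and RPL10A 0.59 below the family, and RPL10 0.65 above it. These 5 genes thus also departed between cell classes of 1 library, but RPL3, RPL4, RPS9, RPSA, RPL35 and RPL34 did not. RPL3 had 3363 CPM in PNP-like and 1944 in Glut-like cells, and RPL4 542 and 345, where the median log2 ratio of the core genes was -0.57. RPL10A was just past the limit for a departure. These distances rest on 108 Glut-like cells and are given for 1 clustering only, where the other clusterings named 744 to 782 cells Glut-like.

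RPL39L, RPL22L1 and RPS27L differed between classes of D22, and RPL26L1 (90.01 to 130 CPM) and RPL7L1 (115 to 150 CPM) were closer to level. RPL39L was highest in dividing cells, with 64.1 CPM in PNP-like, 17.5 in NNP-like, 23.4 in IRX-like, 19.9 in GnRH-GABA-like (39 UMIs only) and 27.4 in Glut-like cells (28 UMIs only). NNP-like over PNP-like cells gave a log2 ratio of -1.88 (counting interval -1.97 to -1.78), 1.99 below the family, while RPL39 had 4150 and 3711 CPM. RPL22L1 had 81.9 CPM in PNP-like, 49.0 in NNP-like, 89.0 in IRX-like, 28.0 in GnRH-GABA-like (55 UMIs) and 31.3 in Glut-like cells (32 UMIs), so IRX-like and PNP-like cells were highest. RPS27L had 324, 487, 496, 436 and 200 CPM in the same order. The GnRH-GABA-like and Glut-like classes at D22 depend on the clustering, as given above. At D24 RPS27L was 185 in Glut-like and 195 in GnRH-GABA-like cells but 425 in IRX-like, 684 in NNP-like and 602 in PNP-like cells, the last from 52 cells. The NNP-like class at D24 depends on the clustering. It held 146 cells here, but 19 with coarser clusters and 4 without likely doublets. With finer clusters each NNP-like cluster held 7 cells of D24. Glut-like cells made up 7880 of the 9107 cells of D24.

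Clusters of the tagged libraries, formed in the same way, mostly held cells of 1 library. At day 5 the PNP-like clusters, named by their division markers, had lower shares than the other cluster of the same library, 30.7% against 33.7% in D5_dSMADi and 28.7% against 32.7% in D5_XAV939, and had more UMIs a cell (a median of 40754 against 25985 and of 35525 against 23062). In D10_XAV939, 61 cells of a cluster led by STMN2 and NEFM, genes of neurons, had 16.9% against 22.5% in the 2104 other cells clustered there, with a median of 20953 and 24484 UMIs. The part of depth in these differences was not tested.

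Across all 8 libraries 60 of the 78 core genes kept their log2 share of the family within a range of 1. The steadiest were RPL22 (0.097), RPL31 (0.17), RPL7 (0.25), RPL19 (0.26) and RPS23 (0.28). Wide ranges were those of RPL17 (5.24), RPL36A (2.46), RPL4 (1.85) and RPS2 (1.53). RPL17 and RPL36A split by run. RPL17 had 3660 CPM at D0 and 3429 to 5686 in the other tagged libraries, but 128, 104 and 68.4 at D22, D24 and D26. RPL36A had 1687 CPM at D0 and 495, 440 and 268 in the later set. Within each set both genes stayed within a range of 0.45.

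The annotations differed for these genes. RPL17-C18orf32 and RPL36A-HNRNPH2, read-through genes that overlap RPL17 (GRCh38 chr18:49488453-49492508, minus strand) and RPL36A (chrX:101390824-101396155, plus strand) on the same strand in GENCODE 44, were listed only in the files of D22, D24 and D26. They held 314 and 0 UMIs at D22, 124 and 0 at D24 and 203 and 1 at D26. Run, annotation and day cannot be told apart for these genes. Without RPL17 and RPL36A the other 76 core genes took 22.2% of UMIs at D0, 31.5% and 29.98% at day 5 without and with XAV939, 23.4% and 21.8% at day 10, and 25.1%, 19.9% and 14.5% at D22, D24 and D26, the same order as with them.

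Members with little or no signal were RPL3L, a paralog of heart and skeletal muscle, with 19 UMIs at D0 and 0 to 9 in the other libraries, and RPL10L, a retrogene of the testis, with 1 UMI in all, at D26. The read-through gene RPS10-NUDT3 had 251 to 557 UMIs in the tagged libraries and 10 to 30 in the later ones. RPS4X, the X-linked core gene with Y-linked relatives, followed the family within 0.43 on the log2 scale in all 7 pairs. RPL36A and RPL36AL can share reads, as can other members and the 1605 pseudogenes of the family in GENCODE 44, and their counts are uncertain to that extent.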

How the data were processed

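The deposited matrices hold UMI counts per gene and barcode, which the authors made from 10x Genomics 3′ libraries with Cell Ranger on GRCh38 (3.1 per the submitters' processing notes and methods; headers name 3.1.0 in the later set and 6.1.2 in the tagged set). The annotation releases are not given in the sources used here. Rows of multiplexing oligos were kept out of gene totals.

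Cells were kept by the study's limits for each library. For D0 its stated complexity limit left 1 of 1292 barcodes and was dropped, which left 1009, 1 more than the study analysed. For the day 5 and day 10 libraries the study's number of analysed cells equals all deposited barcodes (2480, 2919, 2778 and 2638), of which its stated limits left 2419, 2815, 2416 and 2168. The alternative with all barcodes covers this difference. UMIs were summed over the cells of a library and divided by all UMIs (CPM). Ratios carry the interval of an exact binomial split, for counting error only, and were tested on simulated data, where 95.5% of the intervals of changed genes held the true value in D5_dSMADi over D0 and 94.5% in D24 over D22. The simulated counts held only the counting error that the interval assumes, and no spread between cells or cultures. They therefore check the calculation alone. With no replicate there was no test.

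Cells of D22, D24 and D26 were clustered with leidenalg 0.10.2 (2000 variable genes without members and mitochondrial genes, 30 components, 20 neighbours, Leiden resolution 0.5). A cluster took a name with a marker score of at least 0.5 and a lead of 0.3. Doublets stayed in. Scrublet's automatic call (in scanpy 1.11.5) marked 438 cells of D22, but only 3 of D24 and 2 of D26. An alternative therefore left out the cells scoring above the cut for the top 5%, which were 3.91% to 4.86% of a library.

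Named genes are the stalk genes and RPSA, members with a paralog, the 3 largest departures a direction, the 5 widest and 5 narrowest ranges (with 1 left out, not reported here), and the extremes of the companion lists. The other genes named were chosen after their values were seen. The members and lists were chosen with earlier results of these data known.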

Additional observations from a re-analysis of the deposited data

How the results depend on the processing

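The log2 ratio of the whole family kept its direction in all 7 pairs of libraries under the alternatives run, which were all barcodes, mitochondrial UMIs left out, likely doublets left out, the mean of shares per cell and scaling by the median gene ratio, and, chosen after seeing the data, cells of matched depth and passing over D24. Single ratios near 0 did turn under median scaling, those of RPS26, RPL7L1 and RPL22L1 in D10_dSMADi over D5_dSMADi and of RPS9, RPSA and RPL35 in D26 over D24 among them. The order of D22 and D24 in GnRH-GABA-like cells turned with the clustering. Below, the log2 ratios of the family are given for alternatives that moved them past their counting interval, which is narrow. For D5_dSMADi over D0 these were, in the order of all barcodes, mitochondrial UMIs left out, mean per cell, median scaling and matched depth, 0.50, 0.49, 0.53, 0.61 and 0.44. In the same order they were -0.43, -0.42, -0.43, -0.64 and -0.42 for D10_dSMADi over D5_dSMADi, -0.47, -0.46, -0.47, -0.63 and -0.47 for D10_XAV939 over D5_XAV939, -0.0691, -0.0657, -0.0621, -0.12 and -0.0844 for D5_XAV939 over D5_dSMADi, -0.10, -0.11, -0.10, -0.12 and -0.14 for D10_XAV939 over D10_dSMADi, -0.32, -0.32, -0.36, -0.27 and -0.31 for D24 over D22, and -0.46, -0.45, -0.42, -0.76 and -0.47 for D26 over D24. With doublets left out they were -0.47 (D10_XAV939 over D5_XAV939), -0.0692 (D5_XAV939 over D5_dSMADi), -0.34 (D24 over D22) and -0.45 (D26 over D24). Passing over D24 gave -0.79. The count of departing members moved by over 1.5 times in 1 case, from 0 to 1 in D5_XAV939 over D5_dSMADi without a minimum level. Smaller moves without a minimum were from 6 to 7 (D5_dSMADi over D0), 5 to 6 (D10_dSMADi over D5_dSMADi), 14 to 15 (D24 over D22) and 7 to 9 (D26 over D24), and D24 over D22 had 13 with all barcodes and with the centre from summed UMIs. Glut-like over PNP-like cells gave -0.42 at resolution 0.25, -0.42 at 1.0 and -0.40 without doublets. No paired analysis was possible because each condition is 1 library. No replicate could be left out either. Depth limits RPL3L, RPL10L, the read-through genes and RPL39L in the smallest classes.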
